A study of Mus musculus with 6 samples.

Results

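The CDK inhibitors and the D-type cyclins were followed in haematopoietic stem and progenitor cells after an induced knockout of Ctcf, the gene of the zinc finger protein CTCF that marks chromatin boundaries and loop ends. The members were chosen by name: the 3 CIP/KIP genes Cdkn1a, Cdkn1b and Cdkn1c, the 4 INK4 genes Cdkn2a, Cdkn2b, Cdkn2c and Cdkn2d, and the 3 D-type cyclins Ccnd1, Ccnd2 and Ccnd3. These are 10 of the 22180 genes that the arrays name with a single symbol, and each was read by 1 probe set. The cells were LSK cells of mouse bone marrow, negative for lineage markers, positive for Sca-1 and high in c-Kit, a fraction that holds the stem cells and the earliest multipotent progenitors. RNA from WT mice and from mice with an inducible conditional knockout of Ctcf (CTCFcKO), deleted by tamoxifen, was hybridised to Affymetrix Mouse Gene 2.0 ST arrays. There were 6 arrays, 3 per group, from male mice of 8 weeks and each labelled a biological replicate. The treatment protocol, given for both groups, was 2 mg of tamoxifen a day by intraperitoneal injection for 3 days, with the cells sorted 24 hours after the last dose. Controls are labelled WT, although CreER mice are mentioned in the description of the design, so it is not known here whether control cells held CreER. The promoter that drives CreER, the exons deleted and whether marrow was pooled are not given either. An inducible knockout of this kind acts in every cell that carries the recombinase, and the labels do not say that it was limited to blood cells.

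A cell leaves G1 phase when D-type cyclins, bound to CDK4 or CDK6, and then cyclin E, bound to CDK2, phosphorylate the retinoblastoma protein and its relatives, which frees the E2F factors to switch on genes of DNA replication. INK4 proteins bind CDK4 and CDK6 and keep the D-type cyclins off them, whereas CIP/KIP proteins bind assembled cyclin and kinase complexes and block those of CDK2 above all. In haematopoietic stem cells most of the pool rests outside the cycle, and members of both inhibitor families are known for roles in that rest, p57 (Cdkn1c) and p27 (Cdkn1b) in adult quiescence and p16 (Cdkn2a) in ageing.

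Promoter windows are shown for the inhibitor genes with the highest differences, Cdkn1a and Cdkn2c, since the results turn on their RNA levels. RefSeq windows of the build GRCm38.p6, from 250 bases before a start site to 50 after it, were found for 7 of the 10 genes and numbered 11 in all. Cdkn1c, Ccnd1 and Ccnd2 were not among them. Each sequence below is the part before the start site, written 5′ to 3′ along the strand of the gene, with capitals where a motif matched. Cdkn1a lies on the plus strand and has a pair of start sites 2790 bases apart, at chr17:29090729-29090978 (distal) and chr17:29093519-29093768 (proximal), and Cdkn2c lies on the minus strand, at chr4:109666757-109667006 for the first of its start sites.
Cdkn1a distal: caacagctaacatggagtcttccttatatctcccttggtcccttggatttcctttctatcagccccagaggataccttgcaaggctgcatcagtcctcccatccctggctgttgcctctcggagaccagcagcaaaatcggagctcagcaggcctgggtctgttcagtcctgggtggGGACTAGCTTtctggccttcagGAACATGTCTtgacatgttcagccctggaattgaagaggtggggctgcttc
Cdkn1a proximal: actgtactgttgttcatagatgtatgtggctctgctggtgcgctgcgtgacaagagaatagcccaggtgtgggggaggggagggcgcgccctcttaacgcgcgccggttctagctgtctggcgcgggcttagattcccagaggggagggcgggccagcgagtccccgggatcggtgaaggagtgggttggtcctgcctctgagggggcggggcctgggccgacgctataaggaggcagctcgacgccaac
Cdkn2c: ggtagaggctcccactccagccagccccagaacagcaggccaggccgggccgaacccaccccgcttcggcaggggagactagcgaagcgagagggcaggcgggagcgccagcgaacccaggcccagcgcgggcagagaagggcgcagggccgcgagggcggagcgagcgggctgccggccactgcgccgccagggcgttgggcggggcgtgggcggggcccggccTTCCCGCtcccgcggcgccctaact
The capitals mark an E2F site in the Cdkn2c window and 2 matches of the p53 half-site of 10 bases in the distal Cdkn1a window, the latter separated by 12 bases and lying between 73 and 42 bases before that start. A match to this half-site was found in 8.36% of all 32851 windows in the table. The other motifs, searched on both strands, were the CTCF core of 12 bases, the E2F site in its form TTCCCGC and in the other common form, TTGGCGC, and the CHR element TTTGAA of mitotic genes. They were found in 3.36%, 6.81% and 17.9% of all windows, and no match overlapped another in the windows of the 10 genes. The CTCF core matched in 0 of the 11 windows. The E2F site matched in the Cdkn2c window shown and in the upstream window of Cdkn2a, where a further T precedes it, the CHR element once, in Cdkn2b, and a further p53 half-site lay in Cdkn2d. Only exact matches were counted, so a near match, such as the bases directly after the second Cdkn1a half-site, is not in capitals. A match is a stretch of letters and does not show binding.

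Ctcf itself stood at log2 levels of 8.35, 8.59 and 8.73 on WT replicates 1, 2 and 3 and at 7.58, 7.78 and 7.86 on the CTCFcKO arrays in the same order. The groups did not overlap, and the difference of -0.82 (SE 0.13, limma adjusted p = 0.104) left 56.7% of the WT signal. The labels do not say which part of the gene is deleted, so a probe set outside it would not follow the deletion. Of the LSK markers 10 of 12 were measured, all brighter than the median of all genes' means, and Kit stood at 10.38 ± 0.24 and 10.15 ± 0.05 (SD, n = 3 each). Sca-1 is not analysed here. All 13 measured markers of mature B and plasma cells had a negative difference, and all 20 measured G2/M genes a positive one. The array medians of the B and plasma cell markers, each gene centred on its mean, lay between -0.24 and 0.77 in WT and between -0.74 and -0.04 in CTCFcKO. The 8 myeloid progenitor markers had a median difference of 0.78. Their array medians lay between -0.48 and -0.19 in WT and between 0.18 and 0.68 in CTCFcKO. At an unadjusted limma p under 0.05, 6 of the 8 were higher, against 5.03% of all genes. The 8 mast cell and basophil markers had a median of 0.38, with array medians between -0.30 and -0.09 in WT and between -0.05 and 0.57 in CTCFcKO, and 1 of them, Hdc, the histamine-forming enzyme, passed the limma test (log2 difference 2.32, adjusted p = 0.0309). The 10 mature neutrophil markers had a median of -0.52, with array medians between -0.53 and 1.05 in WT and between -0.80 and 0.04 in CTCFcKO. That median lay between -1.06 and -0.01 with 1 array left out, and 3 of the 10 differences were positive. At an unadjusted limma p under 0.05, 4 of these 10 markers were lower, against 684 of all 22180 genes. The part of the myeloid, mast cell and neutrophil markers in the values below was not tested. The array medians of the G2/M genes lay between -0.86 and 0.20 in WT and between 0.03 and 0.46 in CTCFcKO, with WT replicate 2 the lowest by far. In sorted bulk cells a smaller share of cells that hold a transcript and less of it per cell cannot be told apart.

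None of the 10 genes passed the test, and 2 of them, the CIP/KIP inhibitor Cdkn1a and the cyclin Ccnd1, were higher on every CTCFcKO array than on any WT array. Differences are CTCFcKO minus WT on the log2 scale, and a gene was called where its limma p, adjusted over all genes by the Benjamini-Hochberg method, was under 0.05. That rule called 16 genes, 0.0721% of all, and 0 of the 10. At an unadjusted limma p under 0.05 there were 2 of the 10, Cdkn1a and Ccnd1, against 8.11% of all genes, and against 5.03% for higher genes alone. The groups did not overlap for the same 2 of 10, against 13.3% of all genes in either direction and 7.96% on the higher side. Both shares rest on so few members that a single gene moves them by a large step. Of the 10 differences 9 were positive, with a median of 0.08 that lay between 0.03 and 0.15 with 1 array left out, against 54.7% positive and a median of 0.02 over all genes. Among genes brighter than the median of all genes' means 60.4% were positive, and so were 8 of the 9 members found there. With the arrays centred on the brighter genes 7 of the 10 were positive, against 40.1% of all genes, and with a further quantile normalization 8, against 49.9%. Both shares count the dimmer genes too, while 9 of the 10 members are brighter ones, so they are not like shares. Without CTCFcKO replicate 2 there were 5 positive differences among the 10, and with the array median of the G2/M genes as a covariate 4. Several differences, such as those of Cdkn2a and Cdkn2b, are close to 0. An exact permutation test of 3 arrays against 3 cannot give a two-sided p below 0.1.

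**Figure D1:**
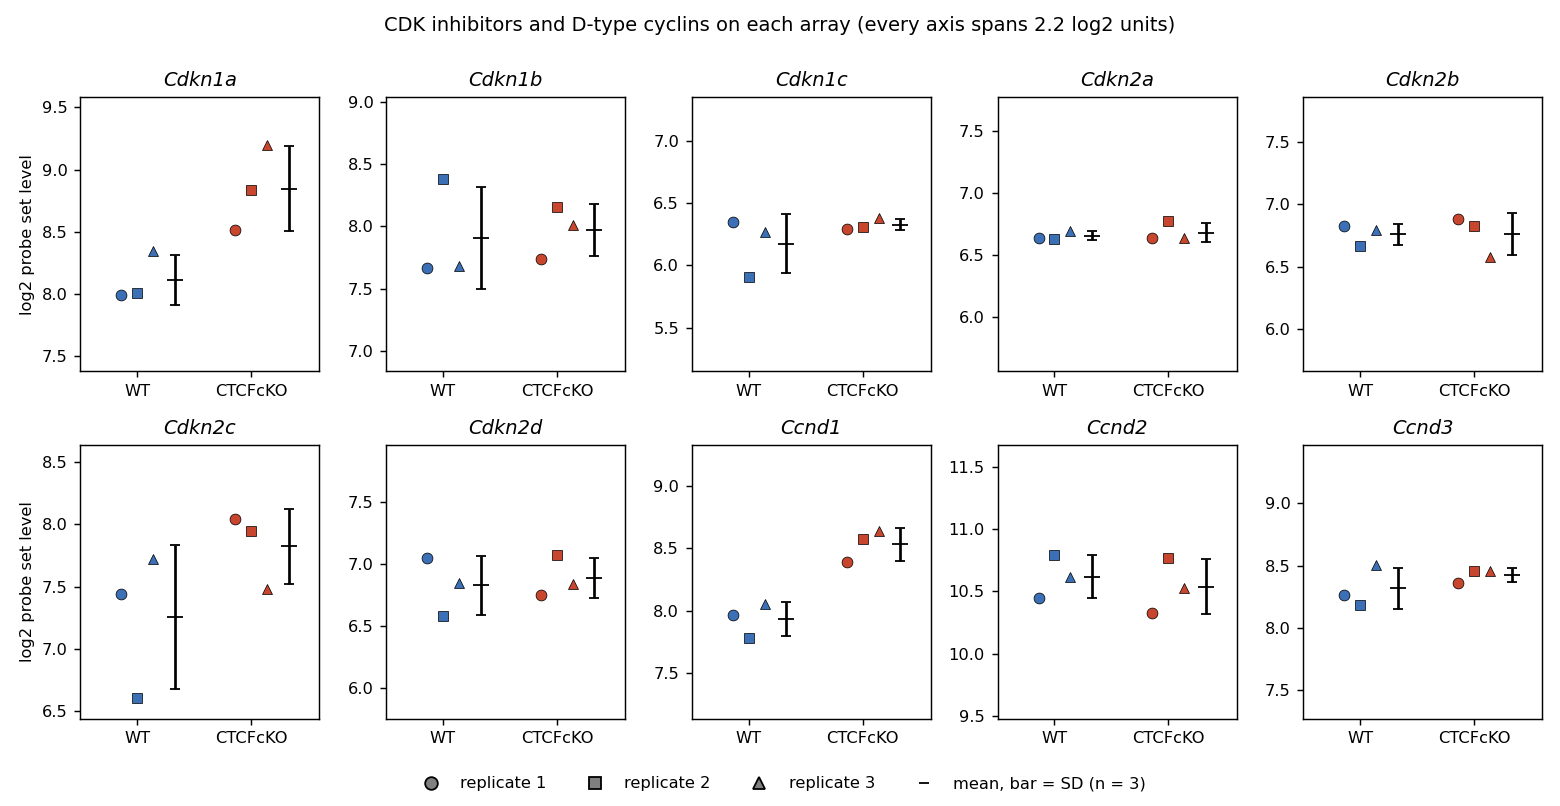
Log2 probe set level of each of the 10 genes (vertical axes, each spanning the same log2 distance) on the 3 WT and 3 CTCFcKO arrays, with the replicate number as the point's shape and the mean and SD beside the points. The CTCFcKO points of Cdkn1a and Ccnd1 lie above all WT points, while those of the other 8 genes overlap.

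Cdkn1a, which encodes p21, the inhibitor that p53 induces after DNA damage, had the largest difference of the 10. Its log2 levels were 7.99, 8.01 and 8.35 on WT replicates 1, 2 and 3 and 8.51, 8.84 and 9.19 on CTCFcKO replicates 1, 2 and 3. The lowest knockout array stood 0.17 above the highest WT array, and the knockout arrays were spread over 0.68 against 0.35 in WT. The difference was 0.73 (SE 0.18, 95% interval 0.32 to 1.15, limma adjusted p = 0.341), a fold change of 1.66 with an interval from 1.25 to 2.21, and the exact two-sided permutation p was 0.1. Leaving out 1 array moved it between 0.56, without CTCFcKO replicate 3, and 0.90, without CTCFcKO replicate 1. With the array median of the G2/M genes as a covariate the difference was 0.71 (SE 0.25, unadjusted p = 0.0253), and with that of the B and plasma cell markers 0.40 (SE 0.18, unadjusted p = 0.0550). Both models were added after the data were seen, and each leaves 3 residual degrees of freedom per gene before moderation.

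The other CIP/KIP genes did not separate the groups. Cdkn1b, which encodes p27, stood at 7.66, 8.38 and 7.68 in WT and at 7.74, 8.15 and 8.01 in CTCFcKO. WT replicate 2, the array with the lowest G2/M level, had the highest Cdkn1b of all 6. The difference of 0.06 (SE 0.20, 95% interval -0.40 to 0.52, limma adjusted p = 0.966) became 0.30 without that array and -0.06 without WT replicate 1. With the G2/M median as a covariate it was 0.41 (SE 0.21, unadjusted p = 0.0823). Cdkn1c, which encodes p57 and is imprinted, stood at 6.35, 5.91 and 6.27 in WT and at 6.30, 6.31 and 6.38 in CTCFcKO. It was the only one of the 10 whose mean lay below the median of all genes' means, 6.29, and the low WT value was again that of replicate 2. Its difference was 0.15 (SE 0.13, 95% interval -0.15 to 0.46, limma adjusted p = 0.842), and it was 0.02 without WT replicate 2. The intervals of both genes include a difference of 0.40, so a rise of that size in either was not excluded with 3 arrays per group. That of Cdkn1b also reaches down to -0.40.

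Among the INK4 genes Cdkn2c had the largest difference and the largest spread between arrays. Cdkn2c encodes p18, the INK4 inhibitor whose loss is known to expand the stem cell pool in mice. Its levels were 7.44, 6.61 and 7.72 in WT and 8.04, 7.94 and 7.48 in CTCFcKO. WT replicate 2 was far below the others, and CTCFcKO replicate 3 lay below WT replicate 3, so the groups overlapped. The difference of 0.57 (SE 0.27, 95% interval -0.06 to 1.19, limma adjusted p = 0.645) became 0.24 without WT replicate 2 and 0.80 without WT replicate 3. With the array median of the G2/M genes as a covariate it was -0.08 (SE 0.14, unadjusted p = 0.604).

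Cdkn2c followed the mitotic genes from array to array. The 3 genes whose centred profiles over the 6 arrays were nearest to that of Cdkn2c were Ccnb2, the mitotic cyclin B2, at a root mean square distance of 0.058 on the log2 scale, Aurkb, the kinase of the chromosomal passenger complex, at 0.060, and Mis18a, a factor that loads centromeric histone, at 0.078. Cdkn2c and the G2/M median put 4 of the arrays in the same order, with WT replicate 2 lowest, then WT replicate 1, CTCFcKO replicate 3 and WT replicate 3, and CTCFcKO replicates 1 and 2 on top. Ccnb2 stood at 10.77, 9.84 and 10.96 in WT and at 11.28, 11.07 and 10.71 in CTCFcKO, the same low array and the same overlap. By the same measure the nearest genes to Cdkn1a, the other member with a large spread over the arrays, were Selp, which encodes P-selectin, at 0.112, Grk4, a receptor kinase gene, at 0.134 and Slc24a3, an ion exchanger gene, at 0.137. The nearest genes were picked from all 22180 by likeness over only 6 arrays, which describes these arrays and no more.

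**Figure D2:**
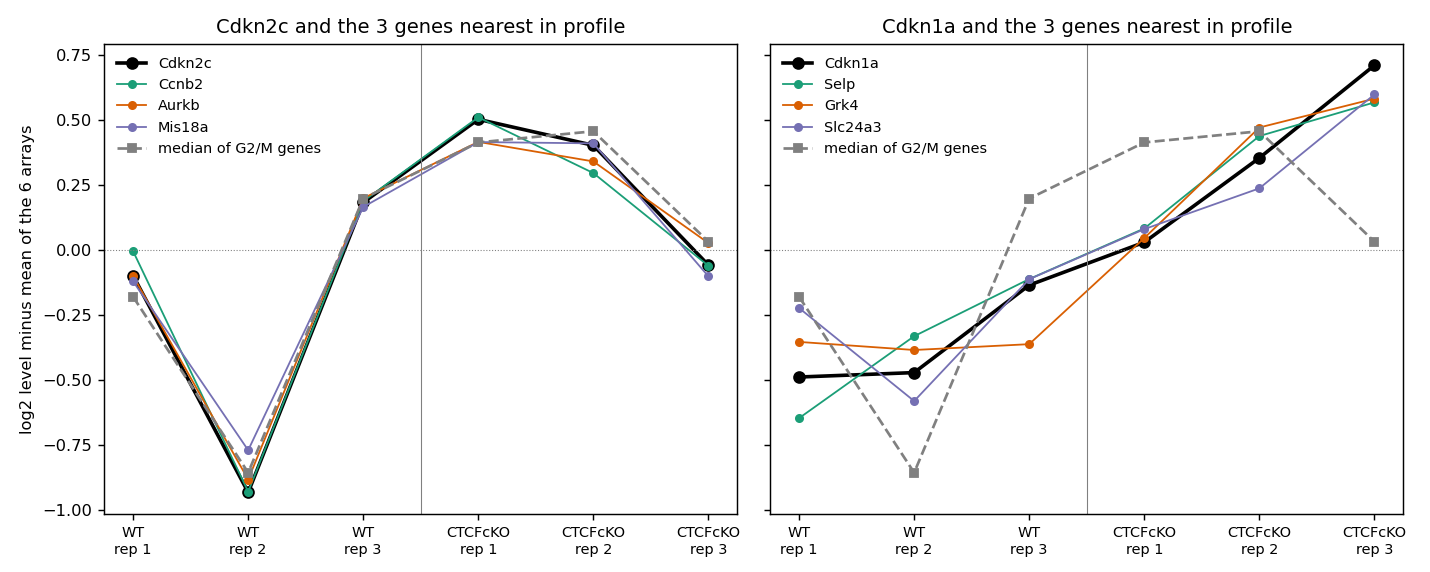
Log2 level minus the mean of the 6 arrays (vertical axis) for Cdkn2c and Cdkn1a, the 3 genes nearest to each in profile, and the median of the G2/M genes, by array (horizontal axis; lines only join the points of 1 gene). Cdkn2c and its nearest genes share the low value of WT replicate 2 with the G2/M median, while Cdkn1a does not follow that median on CTCFcKO replicate 3.

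Cdkn2a, Cdkn2b and Cdkn2d had differences near 0 and overlapping groups. Cdkn2a encodes p16 and, in another reading frame, p19ARF, which stabilises p53, and its single probe set does not tell the products apart. Its values were 6.64, 6.63 and 6.70 in WT and 6.63, 6.77 and 6.64 in CTCFcKO, the narrowest spread of the 10 (SD over the 6 arrays 0.057), with a difference of 0.03 (SE 0.10, 95% interval -0.20 to 0.26). Its neighbour Cdkn2b, which encodes the TGF-beta-responsive inhibitor p15, stood at 6.82, 6.66 and 6.79 in WT and at 6.89, 6.82 and 6.57 in CTCFcKO. The Cdkn2b difference was 0.0021 (SE 0.12, 95% interval -0.27 to 0.28). Cdkn2d, which encodes the INK4 protein p19, stood at 7.05, 6.58 and 6.85 in WT and at 6.75, 7.07 and 6.84 in CTCFcKO, a difference of 0.06 (SE 0.15, 95% interval -0.27 to 0.40). Limma adjusted p was 0.950 or more for these genes. The arrays carry no detection call, so levels near the median of all genes show neither that Cdkn2a and Cdkn2b were transcribed nor that they were silent.

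Among the D-type cyclins the groups were apart for Ccnd1 alone. Ccnd1, cyclin D1, stood at 7.97, 7.78 and 8.05 in WT and at 8.39, 8.57 and 8.64 in CTCFcKO. The gap of 0.34 between the groups was the widest of the 10 genes and exceeded the range within either group, 0.27 in WT and 0.25 in CTCFcKO. The difference was 0.60 (SE 0.12, 95% interval 0.33 to 0.88), a fold change of 1.52 with an interval from 1.25 to 1.84. It ranked 94 among all genes by limma p, with an adjusted p of 0.206, and the exact two-sided permutation p was 0.1. Leaving out 1 array moved the Ccnd1 difference between 0.52 and 0.67. It was 0.51 (SE 0.16, unadjusted p = 0.0131) with the G2/M median as a covariate and 0.48 (SE 0.16, unadjusted p = 0.0179) with the B and plasma cell median.

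Ccnd2, cyclin D2, had overlapping groups, at 10.45, 10.79 and 10.61 in WT and at 10.32, 10.77 and 10.53 in CTCFcKO. Its difference was -0.08 (SE 0.15, 95% interval -0.41 to 0.25, limma adjusted p = 0.929), the only negative one of the 10, and it was 0.03 without CTCFcKO replicate 1. Replicate 2 was the highest array in either group, as it was for Cdkn1b. Ccnd3, cyclin D3, stood at 8.27, 8.19 and 8.50 in WT and at 8.36, 8.46 and 8.46 in CTCFcKO, with a difference of 0.11 (SE 0.12, 95% interval -0.16 to 0.37, limma adjusted p = 0.882).

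Members of one class were also compared by their log2 ratio within each array, for all 12 pairs within the 3 classes. The ratio of Ccnd1 to Ccnd2 was higher by 0.68 in CTCFcKO and that of Ccnd1 to Ccnd3 by 0.49, and neither ratio overlapped between the groups. The ratio of Ccnd1 to Ccnd3 was -0.30, -0.41 and -0.45 on the WT arrays and 0.03, 0.11 and 0.18 on the CTCFcKO arrays. Such a ratio compares probe sets of unlike brightness, so only its difference between the groups was compared. The ratio of Cdkn1a to Cdkn1b was higher by 0.67 and that of Cdkn1a to Cdkn1c by 0.58, without overlap. For Cdkn1a to Cdkn1b the groups were barely apart, with 0.67 on WT replicate 3 and 0.69 on CTCFcKO replicate 2. For these 4 pairs the exact two-sided permutation p was 0.1 and 0.3 after Benjamini-Hochberg adjustment over the 12 pairs, and since 0.1 is the smallest p of this design no pair could pass. All 4 pairs hold Cdkn1a or Ccnd1, whose own groups are apart. The other 8 pairs overlapped, among them all 6 pairs of INK4 genes.

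**Figure D3:**
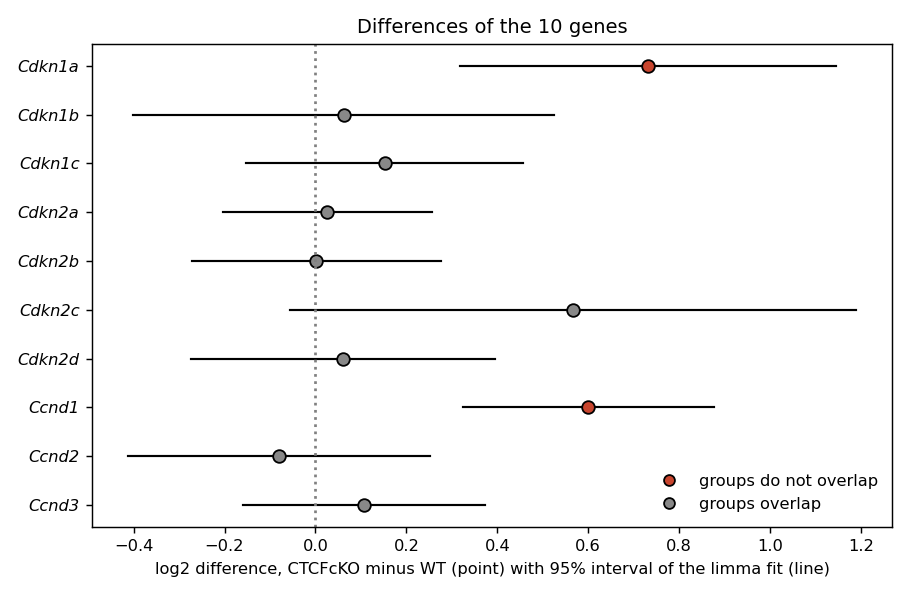
Log2 difference, CTCFcKO minus WT (horizontal axis), of the 10 genes with the 95% interval of the limma fit; red points are genes whose groups do not overlap. The intervals of Cdkn1a and Ccnd1 lie above 0 and that of Cdkn2c reaches just below it, before any adjustment for the number of genes.

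No kinase, pocket protein or E2F gene that works with the cyclins and inhibitors passed the test. Of 9 genes of the G1 kinases and cyclin E 8 were measured, 0 were called, and 7 differences were positive (median 0.15). Cdk4 differed by 0.21 (SE 0.13) and Cdk6 by -0.02 (SE 0.17), and Cdk2, the kinase that p21 blocks, by 0.21 (SE 0.10, limma adjusted p = 0.619), without overlap between the groups. These 3 kinases were chosen for mention after their values were seen. Among the 3 pocket proteins, 0 of them called, Rbl1, which encodes p107, was higher by 0.39 (SE 0.12, limma adjusted p = 0.451), while Rb1 differed by 0.14 and Rbl2 by -0.06, both given to complete the family. Of the 10 genes of E2F factors and partners 0 were called and 9 differences were positive (median 0.22). E2f3 differed by 0.33 (SE 0.13) and E2f7, an atypical repressor E2F, by 0.48 (SE 0.20), while E2f5, which works with the pocket proteins in resting cells, differed by -0.41 (SE 0.12), none with a limma adjusted p below 0.429 and none with overlapping groups. Over the 10 genes the groups did not overlap for 3 higher and 1 lower, against 13.3% of all genes in either direction.

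Genes listed under turnover of the inhibitors and cyclins had differences of both signs, of which the largest were positive. Of 12 measured genes of protein turnover 6 had a positive and 6 a negative difference, from -0.18 to 0.58, 0 were called, and the median was 0.05. At an unadjusted limma p under 0.05 there were 2 higher and 0 lower, against 5.03% of all genes higher at that p. The largest difference was that of Cks2, a CDK-binding subunit, at 0.58 (SE 0.27, limma adjusted p = 0.633), named after its value was seen. Its lowest array was WT replicate 2, at 10.32, which was also the lowest for the G2/M genes. Skp2, the ubiquitin ligase subunit that marks p27 for destruction, stood at 8.38, 8.33 and 8.44 in WT and at 8.46, 8.93 and 8.97 in CTCFcKO (difference 0.40, SE 0.15, limma adjusted p = 0.551). CTCFcKO replicate 1 was thus close to the WT arrays. Dtl, a subunit of the ligase that degrades p21 and Cdt1 in S phase, differed by 0.30 (SE 0.13, limma adjusted p = 0.597).

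Among 23 measured transcriptional regulators of these genes 0 were called, 11 differences were positive and 12 negative, and the median was -0.01. Myc, which represses Cdkn1a and Cdkn2b and activates Ccnd2, was lower on every CTCFcKO array, at 11.18, 11.15 and 10.90 in WT against 10.60, 10.30 and 10.84, with a difference of -0.50 (SE 0.15, limma adjusted p = 0.459). CTCFcKO replicate 3 was only slightly below the lowest WT array. Ezh2, the Polycomb methyltransferase that silences the Cdkn2a locus, differed by 0.35 (SE 0.14, limma adjusted p = 0.578). Trp53 is not analysed here.

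The p53 targets other than Cdkn1a lay on both sides of 0, most of them above it. Of 23 measured genes 0 were called, 18 differences were positive, and the median was 0.08. Over all genes 54.7% were positive and the median was 0.02. Sesn2, a stress-induced sestrin, differed by 0.39 (SE 0.11) and Tnfrsf10b, a death receptor, by 0.27 (SE 0.10). In the other direction Trp53inp1, a p53-induced nuclear protein gene, differed by -0.55 (SE 0.18) and Phlda3, an inhibitor of AKT, by -0.33 (SE 0.12). The groups of these 4 genes, named for their small unadjusted p, did not overlap, and their limma adjusted p was 0.394 or more. Over the 23 genes the groups did not overlap for 4 higher and 2 lower, against 13.3% of all genes in either direction. Mdm2, the ligase of p53, differed by 0.12 and Ccng1, a cyclin G gene, by 0.18, the latter without overlap. Both were chosen for mention after their values were seen.

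The genes that E2F switches on had positive differences throughout. Of 19 measured E2F targets of S phase 19 were positive, with a median of 0.33, between 0.22 and 0.47 with 1 array left out, and 0 were called. At an unadjusted limma p under 0.05 there were 8 of these 19, all higher, against 5.03% of all genes higher at that p. Tk1, thymidine kinase, differed by 0.52 (SE 0.14) and Prim1, a primase subunit, by 0.63 (SE 0.20). The 20 G2/M genes had a median of 0.56, which was 0.30 without WT replicate 2, with Mki67, the proliferation antigen, at 0.63 (SE 0.21) and Ccna2, cyclin A2, at 0.76 (SE 0.26). On the same arrays the myeloid progenitor markers had a median of 0.78 and the mature neutrophil markers one of -0.52. The latter lay between -1.06 and -0.01 with 1 array left out. The part of both marker lists in these values was not tested. A list's count here describes genes that rise and fall together in the cycle, and the 6 arrays are the only replicates.

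**Figure D4:**
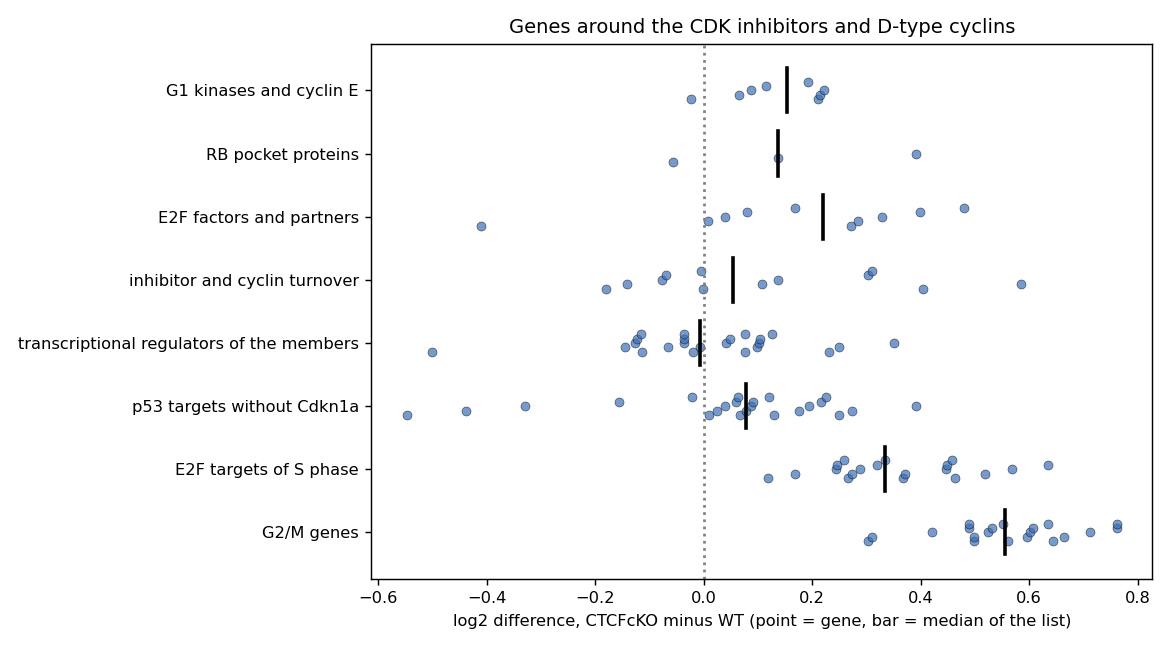
Log2 difference, CTCFcKO minus WT (horizontal axis), of each measured gene (points) in 8 lists around the CDK inhibitors and D-type cyclins, with the list's median as a bar. The E2F targets of S phase and the G2/M genes lie to the right of 0, while the transcriptional regulators and the turnover genes lie on both sides of it.

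The genes next to the members in gene order were read from the same fit, because CTCF sites can separate neighbouring genes. The nearest measured protein-coding gene on each side gave 20 places around the 10 members, with 0 called. Cdkn2a and Cdkn2b are each other's neighbour and so are counted among the 20. The gaps ran from 489 bases, between Cdkn2d and Kri1, to 377165, between Cdkn2b and Dmrta1. The groups did not overlap at 6 of the 20, against 13.3% of all genes: Rab44, Slc22a18, Mtap, Ap1m2 and Tigar were higher and Parp11 lower on every CTCFcKO array. Of the 20 places only Rab44 and Slc22a18 had an unadjusted limma p under 0.05, against 8.11% of all genes. Rab44, a Rab GTPase gene on one side of Cdkn1a, stood at 7.70, 7.60 and 8.01 in WT and at 8.34, 8.32 and 8.32 in CTCFcKO. The knockout arrays of Rab44 were all above the WT arrays and almost equal, with a difference of 0.56 (SE 0.13, limma adjusted p = 0.284). On the other side the splicing factor gene Srsf3 differed by 0.02 (SE 0.15). Slc22a18, a transporter gene next to Cdkn1c in its imprinted cluster, differed by 0.34 (SE 0.12, limma adjusted p = 0.534) without overlap, and Kcnq1 on the other side by 0.03 (SE 0.10). Around Cdkn2a and Cdkn2b, Mtap differed by 0.15 (SE 0.10) and Dmrta1 by 0.15 (SE 0.16). Beside Ccnd1, Fgf15 differed by -0.16 (SE 0.10) and Tpcn2 by -0.10 (SE 0.17). The neighbours of Ccnd2 were Tigar at 0.12 (SE 0.10) and Parp11 at -0.24 (SE 0.12), and those of Ccnd3 were Taf8 at -0.04 (SE 0.13) and Med20 at 0.16 (SE 0.16). Gpr19 and Apold1 beside Cdkn1b differed by 0.02 and -0.14, 4930522H14Rik and Faf1 beside Cdkn2c by -0.01 and 0.03, and Kri1 and Ap1m2 beside Cdkn2d by -0.13 and 0.08.

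**Figure D5:**
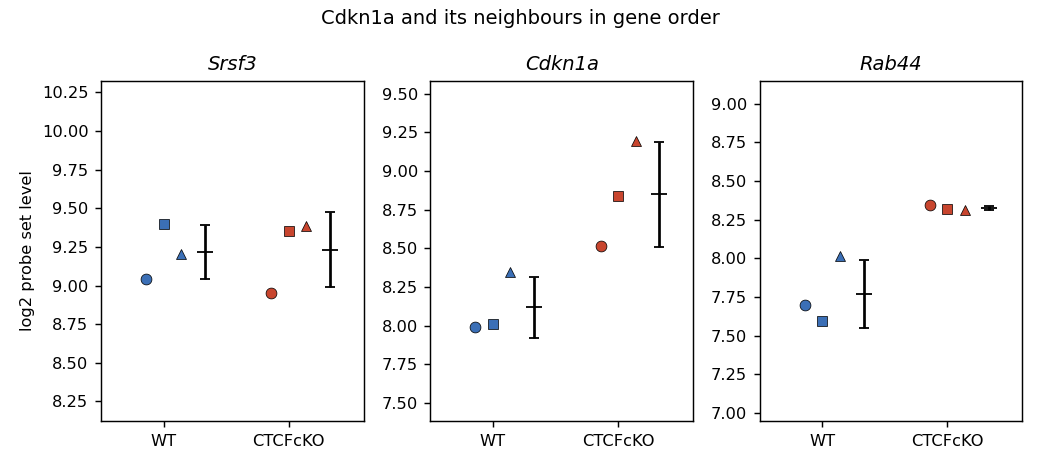
Log2 probe set level (vertical axes, each spanning the same log2 distance) of Cdkn1a and of its nearest measured protein-coding neighbours Srsf3 and Rab44 on the 3 WT and 3 CTCFcKO arrays (circle, square and triangle for replicates 1, 2 and 3; mean and SD beside the points). Cdkn1a and Rab44 are higher on all CTCFcKO arrays, and Srsf3 overlaps.

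Across the 10 genes the arrays were not alike. WT replicate 2 was the lowest WT array for 7 of the 10, against 39.3% of all genes, and CTCFcKO replicate 1 the lowest knockout array for 8 of the 10, against 34.5% of all genes. Cdkn1b and Ccnd2 were the exceptions in WT, where replicate 2 was the highest for both, and Cdkn1a, where replicate 1 was lowest for all 3 of these genes. In the knockout Cdkn2b and Cdkn2c were the exceptions, with CTCFcKO replicate 3 lowest and replicate 1 highest.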

How the data were processed

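The deposited log2 values of 41345 probe sets on 6 arrays were analysed as the authors gave them. Per the submitters' processing notes, the tools were RMA and oligo, an R package, with no version. The level of summary, the annotation release and the build are not given in these sources. RMA equalises the arrays' distributions and compresses differences of dim probe sets. GEO's platform annotation gave 1 symbol for 23521 probe sets, several for 1814 and none here for 16010. Each of 22180 genes was represented by its brightest single-symbol probe set, with no filter on low values; 9 of the 10 members had a mean over the 6 arrays above the median of those of all genes. Array medians lay between 5.99 and 6.07, and the number of arrays limits the precision.

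The groups were compared with limma (version 3.58.1, R 4.3.3; lmFit, eBayes, group only), with Benjamini-Hochberg adjustment over all genes and a threshold of 0.05. SEs and 95% intervals come from the moderated fit. Single values were also tested by an exact two-sided permutation test. On simulated data with 200 of 22180 genes changed, the fit found 19.6% of those shifted by a log2 difference of 0.5 and 96.0% of those shifted by 1. Alternatives were trend and robust moderation, array weights, brighter genes only, further quantile normalization, centring on brighter genes, the mean of probe sets, all probe sets, a threshold of 0.1, the replicate number as a block and each array left out; the covariate models were added after the data were seen. Named are all members and Ctcf, in each pathway list up to 2 genes per direction with the smallest unadjusted p under 0.05, the nearest measured neighbours, and the 3 nearest profiles of the 2 members with the largest SD. Kit, Hdc, Rb1, Rbl2, Cdk2, Cdk4, Cdk6, Cks2, Mdm2 and Ccng1 fall outside this rule and were chosen after their values were seen. Neighbours were taken from RefSeq's gene table of GRCm38.p6. The members and lists were chosen with earlier results of these data known. Some list genes are not analysed here.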

Additional observations from a re-analysis of the deposited data

How the results depend on the processing

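None of the 10 genes passed under any of the alternatives run, while the number of genes called over the whole table moved from 16 to 25 with trend and robust moderation, 3 over all probe sets, 26 at a threshold of 0.1, 1 with the G2/M median and 0 with the B and plasma cell median as a covariate. With 1 array left out it lay between 0 and 8. The fit with the replicate number as a block called 7 genes. The deviations of same-numbered arrays from their group means correlated at 0.29, 0.02 and -0.14. With 3 arrays per group these values cannot show whether the numbers mark pairs. The block changed no call among the 10 genes, with Cdkn1a at a limma adjusted p of 0.174 and Ccnd1 at 0.282. Cdkn1a, Ccnd1, Cdkn2c, Cdkn1c and Ccnd3 kept a positive difference under every alternative listed before the analysis. Genes near 0 changed sign, and the cause was not tested. Cdkn2b was -0.044 with array weights, -0.021 with quantile normalization, -0.054 with centring, and between -0.060 and 0.096 with 1 array left out. Cdkn2a was -0.030 with centring and between -0.020 and 0.049 with 1 array left out. The other ranges with 1 array left out were -0.060 to 0.30 for Cdkn1b, -0.062 to 0.17 for Cdkn2d and -0.19 to 0.028 for Ccnd2. With the G2/M median as a covariate Cdkn1c was -0.015, Cdkn2a -0.020, Cdkn2b -0.13, Cdkn2c -0.076, Cdkn2d -0.11, Ccnd2 0.0096 and Ccnd3 -0.021, and with the B and plasma cell median Ccnd3 was -0.029.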
